A study of Drosophila melanogaster with 12 samples.

Results

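The 40 genes described here encode Polycomb and trithorax group proteins and the ATP-dependent chromatin remodellers of Drosophila, together with the acetyltransferase CBP and the kinase-module subunits of Mediator that are genetically grouped with them. They were taken by FlyBase symbol from a count table of 17494 gene identifiers, and the choice used no measured value. A row was matched for 39 of the 40, of which 1, calypso, was found under its synonym caly. No row was matched to the annotated identifier of Ino80, which is not analysed here. All 39 matched genes passed the filter on low counts and were tested among 7328 genes.

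Polycomb proteins keep developmental genes silent through cell divisions, and trithorax proteins keep them active. Polycomb repressive complex PRC2 methylates histone H3, PRC1 binds that mark, compacts chromatin and ubiquitinates histone H2A, and DNA-binding proteins such as Pho bring both to Polycomb response elements. On the opposing side, COMPASS-type complexes methylate H3 at active genes, CBP acetylates it, and SWI/SNF, ISWI, CHD and SWR1-type enzymes use ATP to slide, evict or exchange nucleosomes. Cultured Drosophila cells are a standard material for mapping these complexes, and many of their homeotic genes are silent targets of Polycomb.

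The cells were S2, a Drosophila line of embryonic origin with hemocyte (blood cell) properties, kept for 48 h in DMSO or in TMPyP4, a cationic porphyrin that binds G-quadruplexes, structures into which guanine-rich DNA or RNA can fold. TMPyP4 was given at 25, 50 or 100 µmol/L, and each of the 4 groups had 3 poly(A)-selected, stranded RNA libraries, 12 in all. The labels also give the DMSO group a value of 100 µg/L, which is not read here as a concentration of TMPyP4 or of solvent, and they state that the RNA was prepared in a mixture with RNA of zebrafish. No label says that the replicates were separate cultures, so p-values measure the spread between libraries, which may be technical, and all libraries come from 1 cell line.

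Gene counts per library ranged from 4669194 to 9662038, and the 39 genes had between 1 and 5112 counts in a library. Values below are CPM, counts per library size after TMM scaling, and lists of 3 values follow replicates 1, 2 and 3. Sums over marker lists are the exception: their CPM are per library size as counted, without TMM scaling. Libraries differed in the level of long genes, measured by the slope of log2 CPM, taken against each gene's mean, per doubling of exonic length. The slope was highest in DMSO replicate 1, at 0.264, and was 0.0545 and 0.154 in the other DMSO libraries. In the 9 TMPyP4 libraries it ran from -0.222 to 0.0285. The lowest value was that of replicate 2 at 50 µmol/L, the library with the fewest gene counts, and the next lowest was -0.11. Of 13 hemocyte markers 10 were tested, among them Hml and Col4a1, and NimC1, lz and He had at most 5 counts in any library. Summed over the 13 markers, the level was 2849 to 3579 CPM in DMSO, 2109 to 2192 at 25, 1461 to 2542 at 50 and 1682 to 1843 at 100 µmol/L, and 7 of the 10 tested markers were lower by edgeR's test in the comparison of all TMPyP4 libraries with DMSO, where 6.82% of all tested genes were. In the same comparison with an offset for each library's trend on exonic length, 0 of the 10 were lower. The part of these markers in the results was not tested. Neuronal markers summed to at most 3.04 CPM and muscle markers to at most 6.64 CPM in any library. Of 4 germline and ovary markers, vas, osk and tj had at most 10 counts in any library. The gene bam, a germline differentiation factor, was at 172 ± 13.1 CPM in DMSO and 187 ± 14.1 (SD, n = 3) at 100 µmol/L. Without TMM scaling, the 4 markers summed to 138.6 to 197.5 CPM over the 12 libraries, a different scale from that of the bam values.

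The 7 genes of the set with the longest exonic sequence were lower in TMPyP4-treated cells, as were 5 shorter ones, and no gene of the set rose by the test. In the comparison of the mean of the 3 TMPyP4 groups with DMSO (the mean comparison), 12 of the 39 genes fell and 0 rose, against 6.82% of all tested genes that fell and 3% that rose (edgeR quasi-likelihood test, Benjamini-Hochberg adjusted p under 0.05 over 7328 genes). The 12 were trx and ash1 among the trithorax histone methyltransferases, Su(z)12 of PRC2, brm and osa of SWI/SNF, E(bx) of NURF, the CHD enzymes kis and Mi-2, the SWR1-type ATPase dom, the acetyltransferase nej, and skd and kto of Mediator. Fold changes of these 12 ran from -1.99 for trx to -0.37 for Mi-2 on the log2 scale. At 25 µmol/L 4 of the 39 fell, against 1.13% of all genes; at 50 µmol/L 8 fell, against 5.16%; at 100 µmol/L 9 fell, against 3.59%. None of the 39 rose at any concentration, where 0.532%, 1.69% and 1.58% of all genes did. These comparisons use the same 3 DMSO libraries and are not independent of each other. Fewer cells of a type and less RNA per cell cannot be told apart in such bulk libraries.

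The median log2 fold change of the 39 genes was -0.21 at 25, -0.32 at 50 and -0.30 at 100 µmol/L, beside 0.013, 0.021 and 0.015 for all tested genes. Values were below 0 for 31, 32 and 32 of the 39, beside 3482, 3477 and 3504 of all 7328 tested genes. All treated libraries lay below all DMSO libraries for 11 genes at 25 µmol/L, where 8.62% of all genes did so, for 14 at 50 µmol/L (background 13%) and for 17 at 100 µmol/L (background 13.4%). All 9 TMPyP4 libraries lay below all 3 DMSO libraries for 10 genes, beside 4.41% of all genes. The count of genes that fell depends on single libraries. Without DMSO replicate 1 it was 1, 3 and 5 at the 3 concentrations and 6 in the mean comparison. At 25 µmol/L it was 0 without replicate 2 and 2 without replicate 3 of the treated group. At 50 µmol/L it was 17 without replicate 1 and 2 without either replicate 2 or replicate 3, and at 100 µmol/L it was 5 without either replicate 2 or replicate 3. The share of all tested genes that fell in these fits is not given here. Whether the set depended on single libraries more than other genes was not tested.

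**Figure D1:**
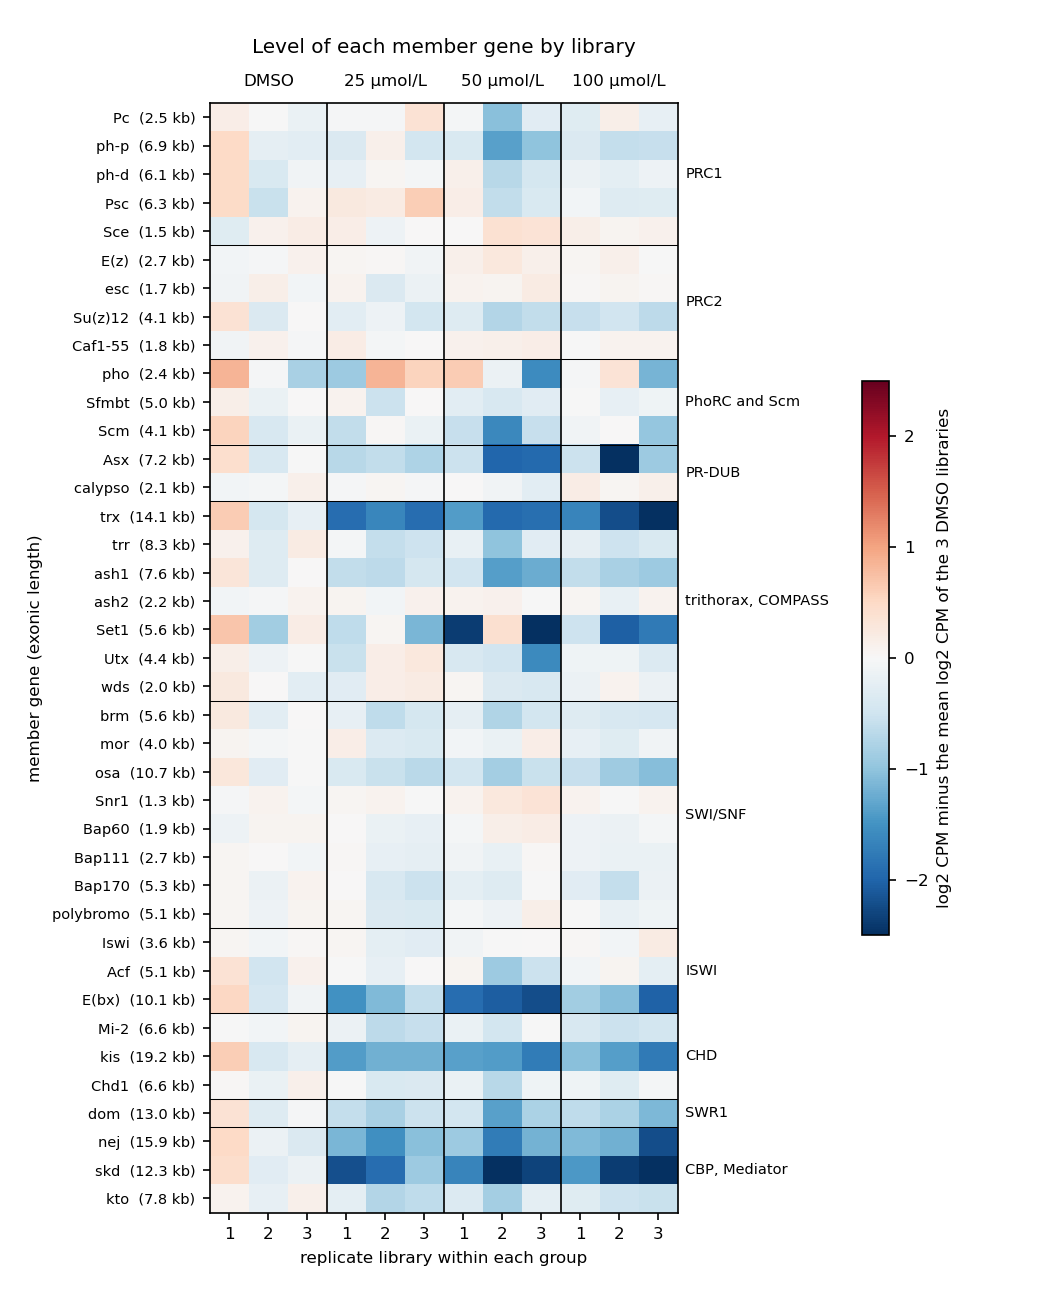
Level of each of the 39 genes (rows, grouped by complex, with exonic length in kb) in each of the 12 libraries (columns), as log2 CPM minus the mean log2 CPM of the 3 DMSO libraries. The rows of trx, E(bx), kis, nej and skd are blue in all 9 TMPyP4 libraries, and the DMSO replicate 1 column is red for many genes.

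PRC1 contributes 5 of the genes, and none of them passed the test in any comparison with DMSO. Pc, the chromodomain subunit that reads the methyl mark laid by PRC2, had 19.2, 17 and 15.2 CPM in DMSO, 16.7, 16.8 and 22 at 25, 16.4, 8.28 and 14.1 at 50 and 13.9, 19 and 14.8 at 100 µmol/L. Its groups overlapped at every concentration, with 1 low library, replicate 2 at 50 µmol/L, which had 34 reads of the gene. The log2 fold change of Pc was -0.13 ± 0.18 (SE), adjusted p = 0.698 in the mean comparison, with a 95% interval of -0.49 to 0.22. Sce, the ubiquitin ligase of the complex, was at 91.7 ± 15.8 CPM in DMSO and 97.9 ± 2.29 (SD, n = 3) at 100 µmol/L. The tandem genes ph-p and ph-d, nearly identical copies of polyhomeotic whose reads may be split or lost between them, had mean-comparison log2 fold changes of -0.56 and -0.22 with adjusted p = 0.0988 and 0.465. Psc, the RING-finger partner of Sce, was 0.30 at 25 µmol/L and -0.29 and -0.30 at the higher concentrations on the log2 scale, with overlapping groups throughout.

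Among the 4 genes of PRC2, Su(z)12 fell and the other 3 did not pass the test. Su(z)12, a zinc-finger subunit that the methyltransferase needs for activity (chr3L:19918242-19923462, minus strand, exonic length 4098 bases), had 66.9, 40.6 and 52.9 CPM in DMSO, 43.4, 48.1 and 38.3 at 25, 42, 31.4 and 34.4 at 50 and 35.1, 37.6 and 33.1 at 100 µmol/L. The DMSO library with the lowest value overlapped the 25 and 50 µmol/L groups, and all 3 libraries at 100 µmol/L lay below DMSO. Its log2 fold change was -0.49 ± 0.13 (SE), adjusted p = 0.0252 in the mean comparison and -0.60 ± 0.17 (SE), adjusted p = 0.0453 at 100 µmol/L, the only concentration at which it passed. E(z), the catalytic methyltransferase (chr3L:10634575-10638130, minus strand, 2665 bases), had 52.3, 53.4 and 58.6 CPM in DMSO, 56.6, 55.6 and 51.6 at 25, 60, 65.5 and 60 at 50 and 56.5, 59.6 and 54.6 at 100 µmol/L. These values span a narrow range, and the 50 µmol/L libraries lay just above DMSO. The fold change of E(z) was 0.07 ± 0.08 (SE), adjusted p = 0.633, with a 95% interval of -0.09 to 0.24, so a fall of the size seen for Su(z)12 lies outside it. The WD-repeat subunits esc and Caf1-55, the latter a histone chaperone shared with several other complexes, had mean-comparison log2 values of 0.01 and 0.08.

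The DNA-binding recruiter pho and its partners Sfmbt and Scm did not pass the test, with mean-comparison log2 fold changes of -0.14, -0.18 and -0.51. Counts of pho were low and scattered, from 13 to 115 reads in a library, and its 95% interval ran from -0.96 to 0.69. In the deubiquitinase complex PR-DUB, the enzyme calypso was at 47.3 ± 3.51 CPM in DMSO and 51.4 ± 2.78 (SD, n = 3) at 100 µmol/L. Its partner Asx had 10.3, 5.89 and 7.67 CPM in DMSO, 4.78, 5.08 and 4.52 at 25, 5.31, 1.95 and 2.01 at 50 and 5.32, 1.01 and 4.11 at 100 µmol/L. Every TMPyP4 library of Asx lay below every DMSO library, but counts were as low as 5 and the log2 fold change of -1.06 ± 0.33 (SE) missed the threshold with adjusted p = 0.0544.

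**Figure D2:**
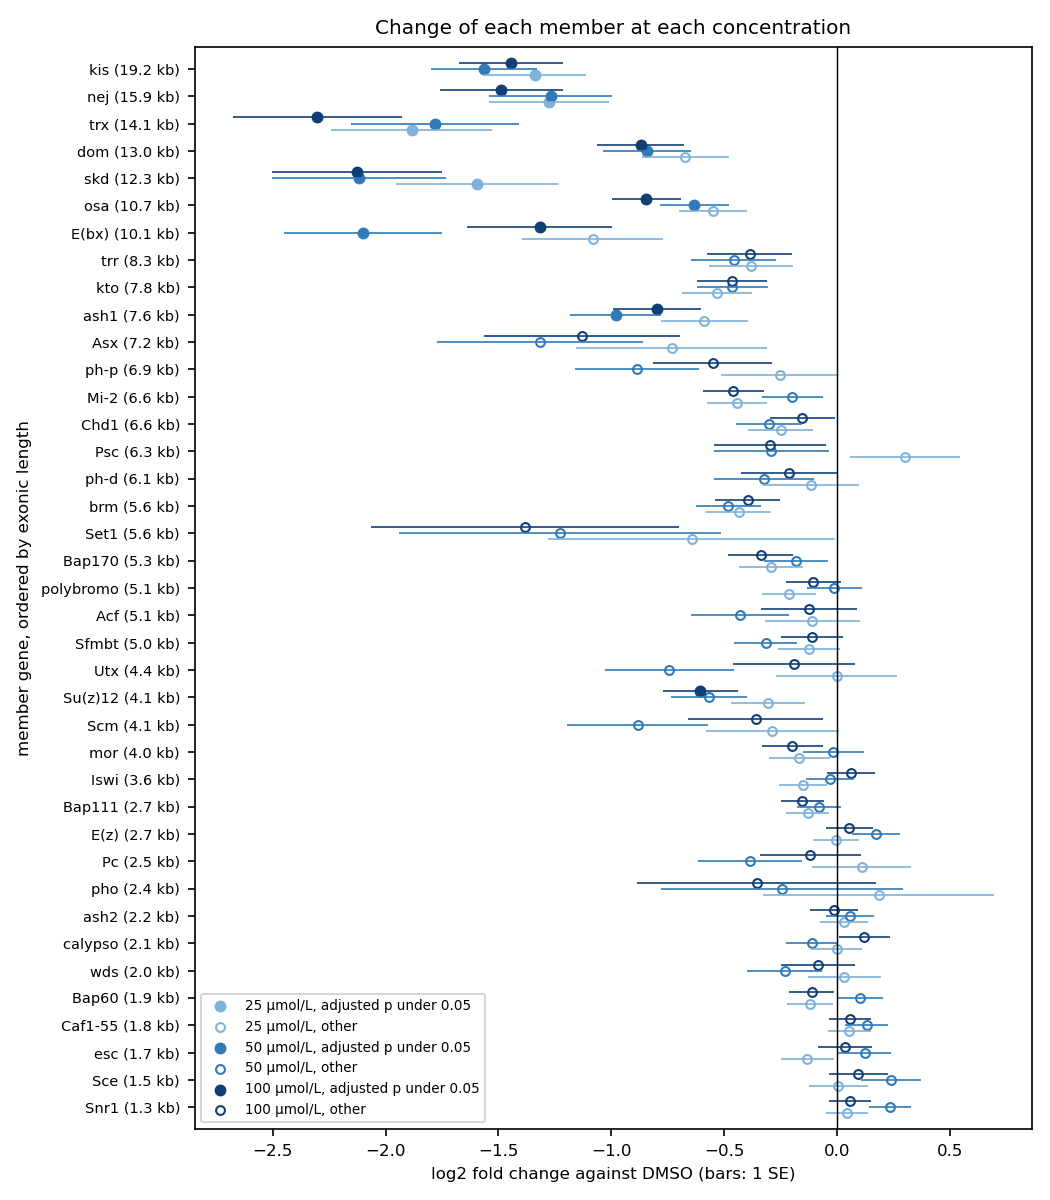
Log2 fold change against DMSO (x axis, bars 1 SE) of each of the 39 genes, ordered from the longest exonic length at the top to the shortest at the bottom, at 25, 50 and 100 µmol/L TMPyP4. Filled points, those with an adjusted p under 0.05, sit among the longest genes apart from ash1 and Su(z)12.

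Of the 7 trithorax and COMPASS genes, trx and ash1 fell. trx (chr3R:14263358-14286903, minus strand, 14052 bases), the methyltransferase that gives the group its name, had 19.1, 9.03 and 10.6 CPM in DMSO, 3.27, 3.94 and 3.26 at 25, 4.66, 3.17 and 3.29 at 50 and 3.89, 2.63 and 1.41 at 100 µmol/L. All 9 TMPyP4 libraries lay below all 3 DMSO libraries, and the DMSO libraries themselves differed, with replicate 1 highest. The log2 fold change was -1.89 ± 0.36 (SE), adjusted p = 0.0186 at 25 µmol/L, -1.78 ± 0.37 (SE), adjusted p = 0.0145 at 50 µmol/L and -2.30 ± 0.38 (SE), adjusted p = 0.00369 at 100 µmol/L. In the mean comparison trx fell by 74.8%, on 13 to 31 reads in a treated library and 69 to 174 in DMSO. Exons of trx overlap those of asRNA:CR46020 and CG14839 on the other strand, and the sources used here do not say whether counting used the strand.

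ash1, which methylates H3 within active genes and counteracts Polycomb (chr3L:19590773-19598755, minus strand, 7615 bases), had 72, 47.1 and 59.2 CPM in DMSO, 38.5, 37.2 and 43.2 at 25, 42, 22.7 and 24.9 at 50 and 38, 33.4 and 31.4 at 100 µmol/L. No treated library reached the lowest DMSO library. The log2 fold change was -0.98 ± 0.20 (SE), adjusted p = 0.0139 at 50 µmol/L and -0.80 ± 0.20 (SE), adjusted p = 0.028 at 100 µmol/L, and at 25 µmol/L the value of -0.59 had an adjusted p of 0.139. The remaining 5 genes of this group did not pass: trr, the methyltransferase that acts at enhancers, was -0.41 ± 0.15 (SE) in the mean comparison with adjusted p = 0.0924, and Utx, the demethylase that removes the PRC2 mark, was -0.31 ± 0.22. Set1, the main COMPASS methyltransferase, was the least abundant gene of the 39 per length and had 1 to 49 reads in a library. Its nominal 95% interval was -2.10 to -0.08. Such intervals use a normal quantile and are narrower than the test implies, so leaving out 0 is not a call. At 100 µmol/L that of Set1 was -2.72 to -0.05, with an unadjusted p of 0.0587 by edgeR's test. The short core subunits ash2 and wds, which all COMPASS-type complexes share, were at 0.03 and -0.10 on the log2 scale.

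SWI/SNF is represented by 8 genes, of which osa and brm fell. osa (chr3R:17687818-17718350, minus strand, 10723 bases), the large subunit that marks the BAP form of the complex, had 560.3, 379 and 453 CPM in DMSO, 351, 313 and 287 at 25, 332, 254 and 312 at 50 and 307, 249 and 219.6 at 100 µmol/L. Treated and DMSO libraries did not overlap at any concentration. Its log2 fold change was -0.63 ± 0.15 (SE), adjusted p = 0.0225 at 50 and -0.84 ± 0.15 (SE), adjusted p = 0.0053 at 100 µmol/L, and -0.55 with adjusted p = 0.0852 at 25 µmol/L. brm, the ATPase (chr3L:15970082-15982869, minus strand, 5597 bases), had 249.8, 174 and 212 CPM in DMSO, 181, 134 and 155 at 25, 179, 124 and 152 at 50 and 168, 158 and 157 at 100 µmol/L. Replicate 1 at 25 and at 50 µmol/L lay within the DMSO range, and the 100 µmol/L libraries lay below it. brm passed in the mean comparison only (-0.44 ± 0.12 (SE), adjusted p = 0.0236), and its values at single concentrations ranged from -0.48 to -0.40.

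The other SWI/SNF subunits did not pass the test. mor, the scaffold that holds the complex together, was -0.13 on the log2 scale in the mean comparison, Snr1 0.11, Bap60 -0.04 and the HMG-box subunit Bap111 -0.12. Bap170 and polybromo, which mark the PBAP form, were -0.27 and -0.11, with adjusted p = 0.147 and 0.521. The interval of Snr1, -0.04 to 0.26, and that of Bap60, -0.20 to 0.12, leave out a fall of the size of osa.

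In the ISWI group E(bx) fell, while the ATPase Iswi and its partner Acf did not pass. E(bx) (chr3L:233926-246912, minus strand, 10072 bases), also called Nurf301, is the largest subunit of the remodeller NURF and had 23.2, 12 and 15.1 CPM in DMSO, 5.66, 7.49 and 10.7 at 25, 4.34, 3.9 and 3.48 at 50 and 8.82, 7.68 and 4 at 100 µmol/L. All treated libraries lay below DMSO, and the 50 µmol/L group was the lowest. The log2 fold change was -2.10 ± 0.35 (SE), adjusted p = 0.00538 at 50 µmol/L, -1.32 ± 0.32 (SE), adjusted p = 0.0272 at 100 µmol/L and -1.08 ± 0.31 (SE) at 25 µmol/L, where adjusted p = 0.102. Iswi (chr2R:12636671-12640628, plus strand, 3647 bases) had 278, 257 and 278 CPM in DMSO, 281, 229 and 222 at 25, 256, 267 and 273 at 50 and 278, 259 and 310.2 at 100 µmol/L. The groups overlapped throughout, and the mean-comparison value was -0.04 ± 0.09 (SE), adjusted p = 0.811 with a 95% interval of -0.21 to 0.13. Acf was -0.22 ± 0.17 (SE).

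Both kis and Mi-2 fell among the 3 CHD remodellers, by very different amounts. kis (chr2L:210735-250823, minus strand), the longest gene of the set with 19229 bases of exon, encodes a CHD protein that promotes elongation by RNA polymerase II, and had 129, 63.1 and 71.5 CPM in DMSO, 31.7, 36.2 and 36.1 at 25, 32.6, 31.7 and 24.9 at 50 and 40.5, 31.9 and 24.6 at 100 µmol/L. Each TMPyP4 library lay well under the lowest DMSO library. Its log2 fold change was -1.34 ± 0.23 (SE), adjusted p = 0.0107 at 25, -1.56 ± 0.23 (SE), adjusted p = 0.00432 at 50 and -1.45 ± 0.23 (SE), adjusted p = 0.00321 at 100 µmol/L, so the values at the 3 concentrations lay within about 1 SE of each other. Mi-2 (chr3L:19882051-19910215, minus strand, 6600 bases), the ATPase of the repressive NuRD complex, had 457, 440.1 and 484 CPM in DMSO, 418, 291 and 308 at 25, 413, 334 and 456 at 50 and 349, 318 and 336 at 100 µmol/L. The 50 µmol/L group overlapped DMSO and the other treated groups did not. Mi-2 passed in the mean comparison only (-0.37 ± 0.11 (SE), adjusted p = 0.0399), and Chd1 was -0.24 ± 0.12 (SE) with adjusted p = 0.218.

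dom (chr2R:21323430-21341847, plus strand, 13020 bases), the ATPase that exchanges histone H2Av, had 260.4, 160.5 and 197 CPM in DMSO, 134, 115 and 139 at 25, 147, 79.2 and 117 at 50 and 129, 116 and 93.2 at 100 µmol/L. Treated and DMSO libraries did not overlap. The log2 fold change was -0.84 ± 0.19 (SE), adjusted p = 0.0202 at 50 µmol/L and -0.87 ± 0.19 (SE), adjusted p = 0.0174 at 100 µmol/L, and -0.67 with adjusted p = 0.0954 at 25 µmol/L. A small RNA gene, sncRNA:184, overlaps its exons on the same strand.

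All 3 coactivator genes fell. nej (chrX:9665442-9687066, minus strand, 15932 bases), the acetyltransferase CBP, had 84.5, 54.7 and 47.1 CPM in DMSO, 27.3, 20.7 and 29 at 25, 32, 18 and 26.5 at 50 and 28.1, 26.1 and 13 at 100 µmol/L. Its treated libraries all lay below DMSO, with the lowest value in replicate 3 at 100 µmol/L. The log2 fold change was -1.28 ± 0.27 (SE), adjusted p = 0.0264 at 25, -1.27 ± 0.27 (SE), adjusted p = 0.0164 at 50 and -1.49 ± 0.27 (SE), adjusted p = 0.00553 at 100 µmol/L. skd (chr3L:20992814-21027434, minus strand, 12307 bases), the Med13 subunit that ties the kinase module to Mediator, had 28.1, 17 and 18.9 CPM in DMSO, 4.53, 5.59 and 11 at 25, 6.59, 3.65 and 4.21 at 50 and 7.65, 4.04 and 2.92 at 100 µmol/L. No treated library of skd reached the DMSO range, and replicate 3 at 25 µmol/L was the highest among them. Its log2 fold change was -1.59 ± 0.36 (SE), adjusted p = 0.0332 at 25, -2.12 ± 0.39 (SE), adjusted p = 0.00764 at 50 and -2.13 ± 0.38 (SE), adjusted p = 0.00466 at 100 µmol/L. kto (chr3L:19836614-19844944, plus strand, 7776 bases), the Med12 subunit of the same module, had 198, 161 and 204 CPM in DMSO, 158, 112 and 119.7 at 25, 146, 103 and 158 at 50 and 151, 129.8 and 126 at 100 µmol/L. Its groups did not overlap at any concentration, but it passed only in the mean comparison (-0.49 ± 0.12 (SE), adjusted p = 0.0194).

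**Figure D3:**
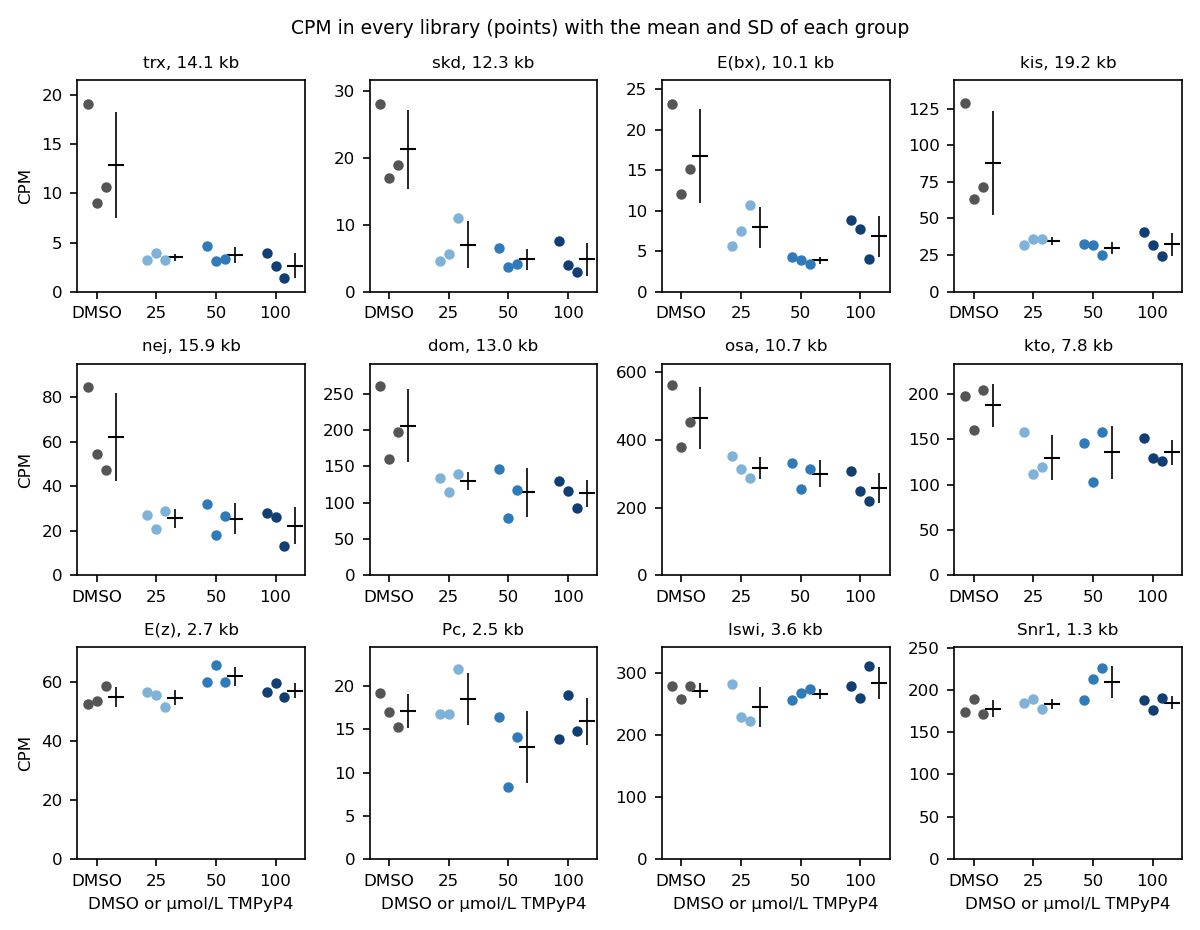
CPM in every library (points) with the group mean and SD (bars, n = 3) for 12 of the genes in DMSO and at 25, 50 and 100 µmol/L TMPyP4; each panel starts at 0 and has its own scale. In the panels of trx, skd, E(bx), kis, nej, dom, osa and kto every treated point lies below every DMSO point, while E(z), Pc, Iswi and Snr1 overlap DMSO in at least 1 concentration.

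At every concentration 4 genes were lower by the test: trx, kis, nej and skd. Across the 4 comparisons with DMSO, 12 of the 39 genes passed at least once and 27 never did. The share of all tested genes that met either rule is not given here, so these counts do not set the 39 genes apart. Between concentrations none of the 39 passed. At 50 against 25 µmol/L the smallest adjusted p of the set was 0.421, with log2 differences from -1.02 to 0.25 over the set. Of the 39 genes, 7 had an unadjusted p under 0.05 there, beside 798 of all 7328 tested genes. For 100 against 25 and 100 against 50 µmol/L the smallest adjusted p was 0.768 and 0.758. In each, 1 gene of the set had an unadjusted p under 0.05, beside 433 and 476 of all 7328 tested genes. Few genes passed in these comparisons at all (0.3%, 0.205% and 0.0409% of those tested, in that order, by the same edgeR test).

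The genes that fell were the long ones. All 7 genes with more than 10000 bases of exon (kis, nej, trx, dom, skd, osa and E(bx)) fell in the mean comparison, 4 of the 15 with 5000 to 10000 bases did, 1 of the 5 with 3000 to 5000 bases, and 0 of the 12 with up to 3000 bases. The shortest gene that fell was Su(z)12 with 4098 bases. Across the 39 genes, Spearman's rho between exonic length and the log2 fold change was -0.82 at 25, -0.82 at 50, -0.86 at 100 µmol/L and -0.88 in the mean comparison; across all 7263 tested genes with a length it was -0.51, -0.64, -0.51 and -0.61. These are descriptions across genes, which share the same libraries and are not replicates.

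Other long genes moved the same way, so the set was read against them. Among the 178 other tested genes over 10000 bases, 110 (61.8%) fell in the mean comparison, with a median log2 fold change of -0.80 beside -1.45 for the 7 genes of the set. At 25, 50 and 100 µmol/L 4, 7 and 7 of the 7 fell, beside 19.1%, 46.1% and 43.8% of the other genes of this length. In the class of 5000 to 10000 bases the set did not stand out: 4 of 15 fell beside 30.8% of 792 others, and the medians were -0.37 and -0.42. For 3000 to 5000 bases the share was 1 of 5 beside 7.49%, with medians of -0.31 and -0.13, and up to 3000 bases it was 0 of 12 beside 0.605%, with medians of 0.006 and 0.091. Of the 178 other tested genes over 10000 bases, 1.69% had a lower mean-comparison fold change than skd or trx, 8.43% than E(bx), 10.1% than kis and 15.2% than nej, whereas 50.6% lay below dom and 56.7% below osa.

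**Figure D4:**
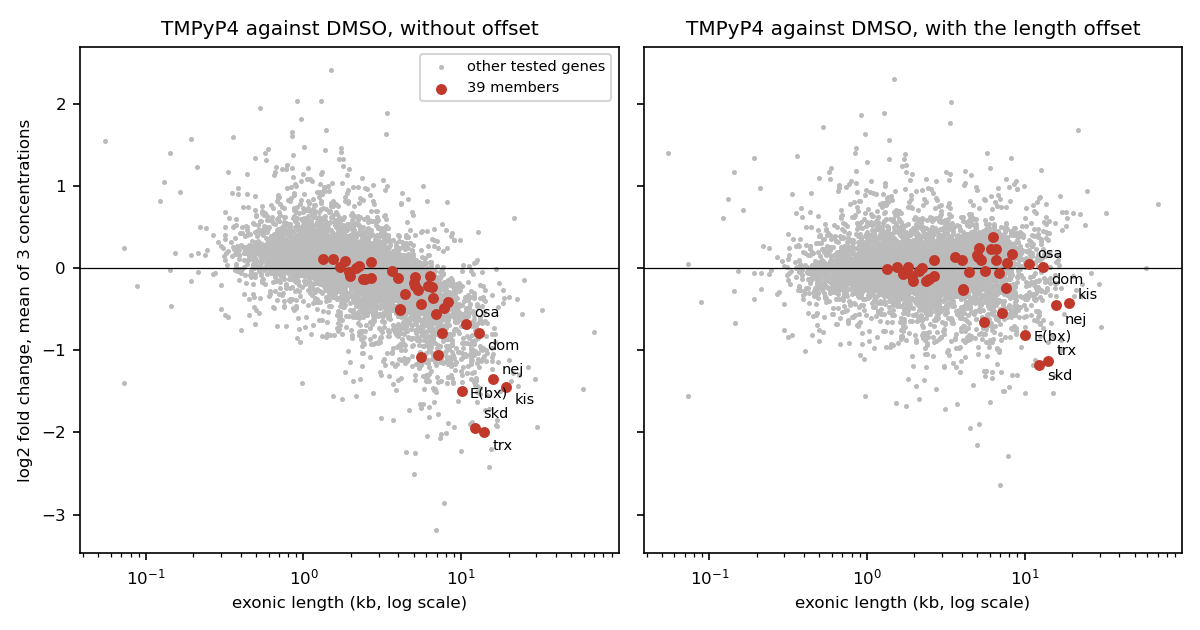
Log2 fold change in the mean comparison (y axis) against exonic length in kb (x axis, log scale) for all tested genes with a length (grey) and for the 39 genes (red), without (left) and with (right) an offset that removes each library's trend of log2 CPM on exonic length. With the offset osa and dom sit at 0.04 and 0.01, while trx and skd stay at -1.13 and -1.18.

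When each library's trend on exonic length was taken out with an offset, 4 of the 39 genes fell in the mean comparison and 0 rose. These were trx (-1.13, adjusted p = 0.00596), skd (-1.18, adjusted p = 0.0047), E(bx) (-0.81, adjusted p = 0.0263) and kis (-0.43, adjusted p = 0.0398). In the same fit, 1.5% of all genes fell and 1.96% rose. The value of nej was -0.45 with adjusted p = 0.109, and that of ash1 -0.25 with adjusted p = 0.173. For osa, dom, kto and Mi-2 the sign turned, to 0.04, 0.01, 0.06 and 0.10. At single concentrations 1, 1 and 2 genes fell at 25, 50 and 100 µmol/L with the offset: trx at 25 µmol/L (adjusted p = 0.0479), E(bx) at 50 µmol/L (adjusted p = 0.0298), and trx and skd at 100 µmol/L (adjusted p = 0.0126 and 0.0167); 0.399%, 0.399% and 1.32% of all genes fell and 0.592%, 0.661% and 1.61% rose. Over the table the offset changed the split of calls in the mean comparison from 220 higher and 500 lower to 142 higher and 109 lower, and at 25, 50 and 100 µmol/L from 39 and 83, 124 and 378, and 116 and 263 to 43 and 29, 48 and 29, and 117 and 96. Whether the offset also takes out a change in the cells was not tested.

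By library, the median deviation of the 7 long genes from their own means was 1.59, 0.66 and 0.81 in DMSO, -0.35, -0.17 and -0.05 at 25, 0.03, -0.72 and -0.41 at 50, and -0.05, -0.34 and -0.87 at 100 µmol/L (log2). The 3 DMSO libraries were thus the highest of the 12, and DMSO replicate 1 was the highest of them. For the 178 other long genes the DMSO libraries were at 0.94, 0.32 and 0.52, in the same order. For the 12 short genes of the set every library lay between -0.08 and 0.09.

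**Figure D5:**
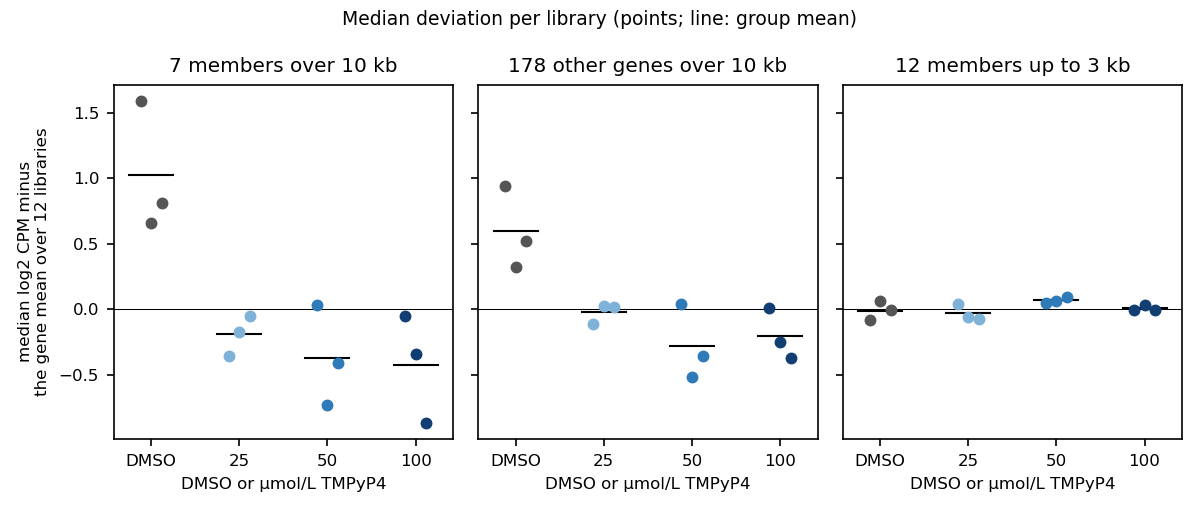
Median deviation of log2 CPM from each gene's mean over 12 libraries (y axis) by group, 1 point per library and a line at the group mean, for the 7 genes of the set over 10 kb, the 178 other tested genes over 10 kb and the 12 genes of the set up to 3 kb. DMSO lies above all TMPyP4 libraries in the first and second panels, with DMSO replicate 1 at 1.59 and 0.94, and no group stands apart in the third.

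The numbers that open the library titles fall into 4 runs of neighbouring values, 3 of which hold 1 DMSO library each and 1 of which holds none; what the numbers stand for is not stated. Within the 3 runs with a DMSO library, all 7 long genes were below the DMSO library of their own run in all 6 treated libraries. That held for 13 of the 39 genes and for 0 of the 12 short ones, beside 9.4% of all tested genes. The share among other genes as long as the 7 is not given here. For trx the DMSO library had 9.03 CPM in the first run, against at most 4.66 in its treated libraries, 10.6 against 3.94 in the second and 19.1 against 3.29 in the third. For dom the same values were 160.5 against 146.7, 196.8 against 133.7 and 260.4 against 139.0, a narrower gap. With run as a block, 5 of the 39 genes fell in the mean comparison (trx, E(bx), kis, nej and skd), beside 1.01% of all genes, and 0 at any single concentration.

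Calls in the mean comparison differed in how they held when 1 library was left out. Those of trx, E(bx), kis and skd were kept in all 18 alternatives tried, the length offset and the run block included. nej lost its call with the length offset only, and osa with the offset and the run block. Without DMSO replicate 1, ash1 had an adjusted p of 0.0603, dom 0.0566, kto 0.113, brm 0.222 and Su(z)12 0.28. Without DMSO replicate 3, kto had 0.118, brm 0.0887 and Su(z)12 0.0901. Mi-2 was the least stable, with adjusted p from 0.0519 to 0.171 in the 7 of 12 such fits in which it lost its call: without any 1 DMSO library, without replicate 2 or 3 at 25 µmol/L, and without replicate 2 or 3 at 100 µmol/L.

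In DMSO the 39 genes covered a wide range of levels per length. Caf1-55 was highest at 185 ± 12.2 CPM per kb of exon (SD, n = 3), followed by Bap60 at 184 ± 13.6, which lay within its spread, Snr1 at 133 ± 7.3 and mor at 112 ± 4.77. Iswi, Mi-2, Bap111 and Sce followed at 74.3 ± 3.4, 69.8 ± 3.35, 75.3 ± 2.74 and 59.5 ± 10.3. At the low end were Set1 at 0.659 ± 0.319, trx at 0.918 ± 0.384, Asx at 1.11 ± 0.31, E(bx) at 1.67 ± 0.574 and skd at 1.73 ± 0.48, whose spreads overlap. Among the ATPases the order was Iswi, Mi-2, brm (37.9 ± 6.76), Chd1 (18.4 ± 1.99), dom (15.8 ± 3.88) and kis (4.56 ± 1.85); Iswi did not differ from Mi-2, nor Chd1 from dom, beyond their spreads. Among the methyltransferases, E(z) was at 20.6 ± 1.27, trr at 18.9 ± 3.47 and ash1 at 7.81 ± 1.64 CPM per kb. Of the genes that fell furthest, trx, skd and E(bx) were thus also among the 5 with the lowest level per length in DMSO.

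Subunits of 1 complex had unlike values in several cases. In NURF the large subunit E(bx) was at -1.50 on the log2 scale while Iswi, Caf1-55 and the small subunit Nurf-38 were at -0.04, 0.08 and 0.15 without passing the test. In the Mediator kinase module skd fell by 1.95 and kto by 0.49, and the short kinase and cyclin genes Cdk8 and CycC were at 0.13 ± 0.12 (SE), adjusted p = 0.555 and 0.04 ± 0.13 (SE), adjusted p = 0.879. The trx protein works with the core subunits ash2, wds and Rbbp5, which were at 0.03, -0.10 and 0.10. Nurf-38 and Rbbp5 were named after their values were seen, to fill in these complexes. The values above are without the length offset, and the subunits differ in exonic length, as with E(bx) at 10072 and Nurf-38 at 1481 bases. With the offset E(bx) was at -0.81, Iswi at 0.14 and Nurf-38 at 0.05 in the mean comparison. In the kinase module skd was at -1.18, kto at 0.06, Cdk8 at 0.02 and CycC at -0.11. For trx and Rbbp5 the values were -1.13 and 0.03. Differences between subunits were not themselves tested.

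Of 60 further genes of the same complexes and pathways, 58 were tested: 2, 9 and 6 fell at 25, 50 and 100 µmol/L, 12 fell in the mean comparison and 0 rose in any of these, where 1.13%, 5.16%, 3.59% and 6.82% of all tested genes fell. With the length offset 0, 1, 2 and 3 of the 58 fell, beside 0.399%, 0.399%, 1.32% and 1.5% of all genes. Their median log2 fold change in the mean comparison was -0.04, and their median exonic length was 2813 bases beside 5119 for the 39. The trithorax-related list had 6 of 13 lower, led by Ncoa6, a cofactor of the trr complex (-2.23 ± 0.36 (SE), adjusted p = 0.00155; 10041 bases), and tna, which encodes an SP-RING protein (-3.19 ± 0.53 (SE), adjusted p = 0.00167). Both also passed with the length offset, at -1.52 and -2.64. Their counts were low. Reads in DMSO replicates 1, 2 and 3 were 120, 52 and 53 for Ncoa6 and 113, 31 and 26 for tna. Treated libraries had 1 to 31 reads of Ncoa6 and 0 to 11 of tna. Values with 1 library left out are not given for either gene. The Polycomb-related list had 4 of 14 lower, led by Jarid2, an accessory subunit of PRC2 (-0.86 ± 0.17 (SE), adjusted p = 0.00568), and psq, a DNA-binding recruiter (-1.03 ± 0.22 (SE), adjusted p = 0.00812). Neither passed with the offset, at -0.24 and -0.48. From the ISWI list tou fell (-1.21 ± 0.16 (SE), adjusted p = 0.000446; 12968 bases), also with the offset (-0.39, adjusted p = 0.016), and Chrac-14 was at 0.24. From the SWI/SNF list e(y)3, a subunit of PBAP, fell (-0.47 ± 0.12 (SE), adjusted p = 0.0244) and Bap55 was at 0.19. With the offset the sign of e(y)3 turned, to 0.17 with adjusted p = 0.572. None of the 14 genes of the INO80 and Tip60 list, none of the 7 of the NuRD-related list and neither kinase-module gene passed. In the mean comparison 2, 2 and 0 of them had an unadjusted p under 0.05, beside 1867 of all 7328 tested genes. The nearest in the INO80 and Tip60 list were YL-1 (0.27) and the long gene Nipped-A (-0.98), and in the NuRD-related list l(3)mbt (-0.34) and simj (-0.52).

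Most of the classical Polycomb target genes listed were silent or nearly so with and without TMPyP4, but ap and pnr were well expressed. Of 22 listed, including Ubx, Abd-B, en and wg, 19 had under 10 counts in every library, with 6 the highest, and 8 of them had 0 in all 12 libraries. At these depths 0 counts allow up to 3 reads in a library, so a rise beyond that was not seen for any of the 8. In DMSO ap was at 728.5 ± 77.3, pnr at 230.8 ± 41.8 and tsh at 8.24 ± 1.83 CPM (SD, n = 3). The 3 that were tested did not pass in the mean comparison: ap was at -0.39 ± 0.13 (SE), adjusted p = 0.0577, tsh at 0.46 ± 0.19 (SE), adjusted p = 0.14 and pnr at -0.20 ± 0.11 (SE), adjusted p = 0.264. With the length offset tsh was higher, at 0.76 with adjusted p = 0.0323.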

How the data were processed

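The authors deposited whole-number read counts per gene, 1 column per library with FlyBase identifiers. The submitters' processing notes name FastQC 0.11.8, MultiQC 0.9, HISAT2 2.0.5, SAMtools 1.7, HTSeq 0.9.1 and the build dm6; the annotation, the strand setting and the handling of zebrafish reads are not given in the sources used here. Entries for reads outside genes (no feature 0.783 to 1.04%, ambiguous 1.87 to 2.71% of a library) were left out. Symbols, positions and exonic lengths came from Ensembl BDGP6.54, which holds 17358 of the 17494 identifiers and may differ from the authors' annotation.

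Low counts were removed by filterByExpr (at least 10 counts, total of 15), and the remaining genes were tested with edgeR 4.0.16 in R 4.3.3 (TMM, glmQLFit and glmQLFTest, all 12 libraries in a single model of group, two-sided, Benjamini-Hochberg over 7328 genes), on counts as deposited. The common biological coefficient of variation was 0.141. Intervals are 95% (1.96 SE). The length offset was a natural spline with 5 degrees of freedom of each library's log2 CPM deviation on log2 exonic length, over 7263 genes. Alternatives were DESeq2 1.42.0 (size factors, and its own test), no filter, a block for replicate number or title-number run, the compared groups alone, and each library left out. Exons of 14 of the genes overlap a gene on the other strand. Replicate pairs differed by more than sampling noise (chi-square per gene 4.06 to 24.7 over 12 pairs). The fitting was tested on simulated data.

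Genes given in full were those past the threshold in any comparison with DMSO plus Pc, E(z), trx, brm, Iswi and nej. Of each list of further chromatin genes, the 2 with the smallest p in the mean comparison were named. The rule did not pick Nurf-38, Rbbp5 or the cell type markers and Polycomb targets named. The genes and lists were chosen with earlier results of these data known. No sequence table was used here, so no sequence is shown.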

Additional observations from a re-analysis of the deposited data

How the results depend on the processing

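At 25, 50 and 100 µmol/L and in the mean comparison, 4, 8, 9 and 12 of the 39 genes were lower. With the length offset these counts were 1, 1, 2 and 4 and the median log2 fold changes -0.050, 0.054, -0.040 and -0.034. With the title-number run as a block they were 0, 0, 0 and 5, with a median of -0.12 at 100 µmol/L; only 1 run holds both DMSO and 100 µmol/L. Without the filter they were 12, 16, 15 and 18, and by DESeq2's own test 9, 13, 10 and 13. With the replicate block they were 8, 14, 12 and 14; replicate numbers did not pair the libraries (6 of 18 same-number pairs had a correlation over 0.1), so this is a block on a number only. Leaving out 1 library gave 0 to 6, 2 to 17, 5 to 10 and 6 to 15, and medians of -0.33 to -0.14, -0.59 to -0.23, -0.42 to -0.14 and -0.39 to -0.18. Shares of all tested genes without the filter, by DESeq2's test, with the replicate block or without 1 library are not given here. These counts thus do not show whether calls changed more in the set than over all genes. Counts between concentrations were 0 in each alternative tried. DESeq2 size factors and the fit of the compared groups gave counts within 1.5 times of those reported. The cause was not tested.

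Of 33 gene-and-comparison calls among the genes given in full, 4 were kept in every alternative (trx, E(bx), kis and skd, mean comparison); 28 were lost with the run block, 25 with the length offset and 18 without DMSO replicate 1, and 0 with DESeq2, no filter or the replicate block. The sign turned with the length offset for brm at 50 µmol/L (0.05), osa at 25 (0.016), at 50 (0.24) and in the mean comparison (0.043), Mi-2 at 50 (0.42) and in the mean (0.10), dom at 50 (0.080) and in the mean (0.011), kto at 50 (0.24), at 100 (0.075) and in the mean (0.064), and Iswi at 50 (0.25) and in the mean (0.14). It turned with the run block for Pc at 100 µmol/L (0.22) and in the mean (0.029). Leaving out 1 library gave values of both signs for Pc at 25 (-0.033 to 0.20), E(z) at 25 (-0.042 to 0.047) and Iswi at 100 µmol/L (-0.020 to 0.11).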
